A study of Mus musculus with 4 samples.

Results

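Chemokines are small secreted proteins that steer the migration of leukocytes, and they act through receptors that span the cell membrane. The genes described here are all protein-coding mouse genes whose symbols begin with Ccl, Cxcl, Cx3cl, Xcl, Ccr, Cxcr, Cx3cr, Xcr or Ackr followed by a number and at most 1 letter. They came to 59 of the 54532 genes listed: 23 CC ligands, 14 CXC, CX3C and XC ligands, 18 conventional receptors and 4 atypical receptors. They were measured by poly-A RNA sequencing of C57BL/6 brain tissue in 4 libraries: 1 from naive and 1 from tumor-bearing young mice, and the same pair from old mice. Values in a row follow that order, with young naive first and old tumor-bearing last. Tumor-bearing mice had received 50000 GL261 cells, a C57BL/6 glioma line, into the brain, and their tissue was taken outside the tumor on day 21. The labels list no treatment for any of the 4 groups. Young mice were 8 to 12 weeks old. For old mice the submitters give 8 to 90 weeks, a range that begins at the age of the young mice, so the group is used as labelled. All 4 samples, naive ones included, carry the GL261 cell line tag, and the group tag was followed. With 1 library per group, and the number of mice behind it not given in the sources used here, nothing here could be checked on replicates or tested, and each comparison is of libraries.

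Ligands are grouped by the spacing of their first cysteines: adjacent in CC ligands, set apart by other residues in CXC and CX3C ligands, while XC ligands lack one of the usual pair. Conventional receptors signal through Gi proteins and direct cells along a ligand gradient. Atypical receptors bind ligands without that signal and scavenge or transport them. In the healthy brain, Cx3cl1 is made mainly by neurons and its receptor Cx3cr1 by microglia, while Cxcl12 holds Cxcr4-bearing cells in place. Many other members are induced by interferons or by NF-kB and draw T cells, monocytes or neutrophils.

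The unit is FPKM, in which fragments are divided by gene length and by depth, so levels can be compared between genes within a library. Between libraries they also depend on the depth scaling. The reads behind each value were recovered from the FPKM steps, and all 59 genes came out in whole reads. The libraries held 19557451 to 23261886 fragments in genes. The depth divisor in the deposited FPKM was 0.798 to 1.19 times those fragments, highest in the old tumor-bearing library. Other scalings raised the log2 ratios of old tumor-bearing over old naive tissue by 0.35 to 0.58. A count of 0 allows up to 3 reads, or 0.129 to 0.192 FPKM for a gene of 1 kb. A fold given as at least puts 3 reads in place of 0 and leaves out counting error in the other library. A range in parentheses after a fold is its exact 95% interval from the reads, for counting error alone. Brain identity genes were present throughout: 5 neuronal markers summed to 859, 762, 1132 and 242 FPKM. Bulk tissue cannot tell fewer cells of a type from less RNA per cell.

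Of the 59 genes, 38 reached 1 FPKM in at least 1 library, among them 26 of 37 ligands and 12 of 22 receptors. The number at 1 FPKM or more was 11 in young naive, 19 in young tumor-bearing, 12 in old naive and 35 in old tumor-bearing tissue. Naive tissue of both ages was thus sparse in chemokine transcripts apart from a few abundant ones. The genes with 0 reads numbered 16, 13, 17 and 4 in the same order. Only Ccl21a had 0 reads in all 4 libraries. That 0 is uncertain, because 71.6% of the 50-base words of its transcripts also occur in other genes, Ccl21b among them.

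**Figure D1:**
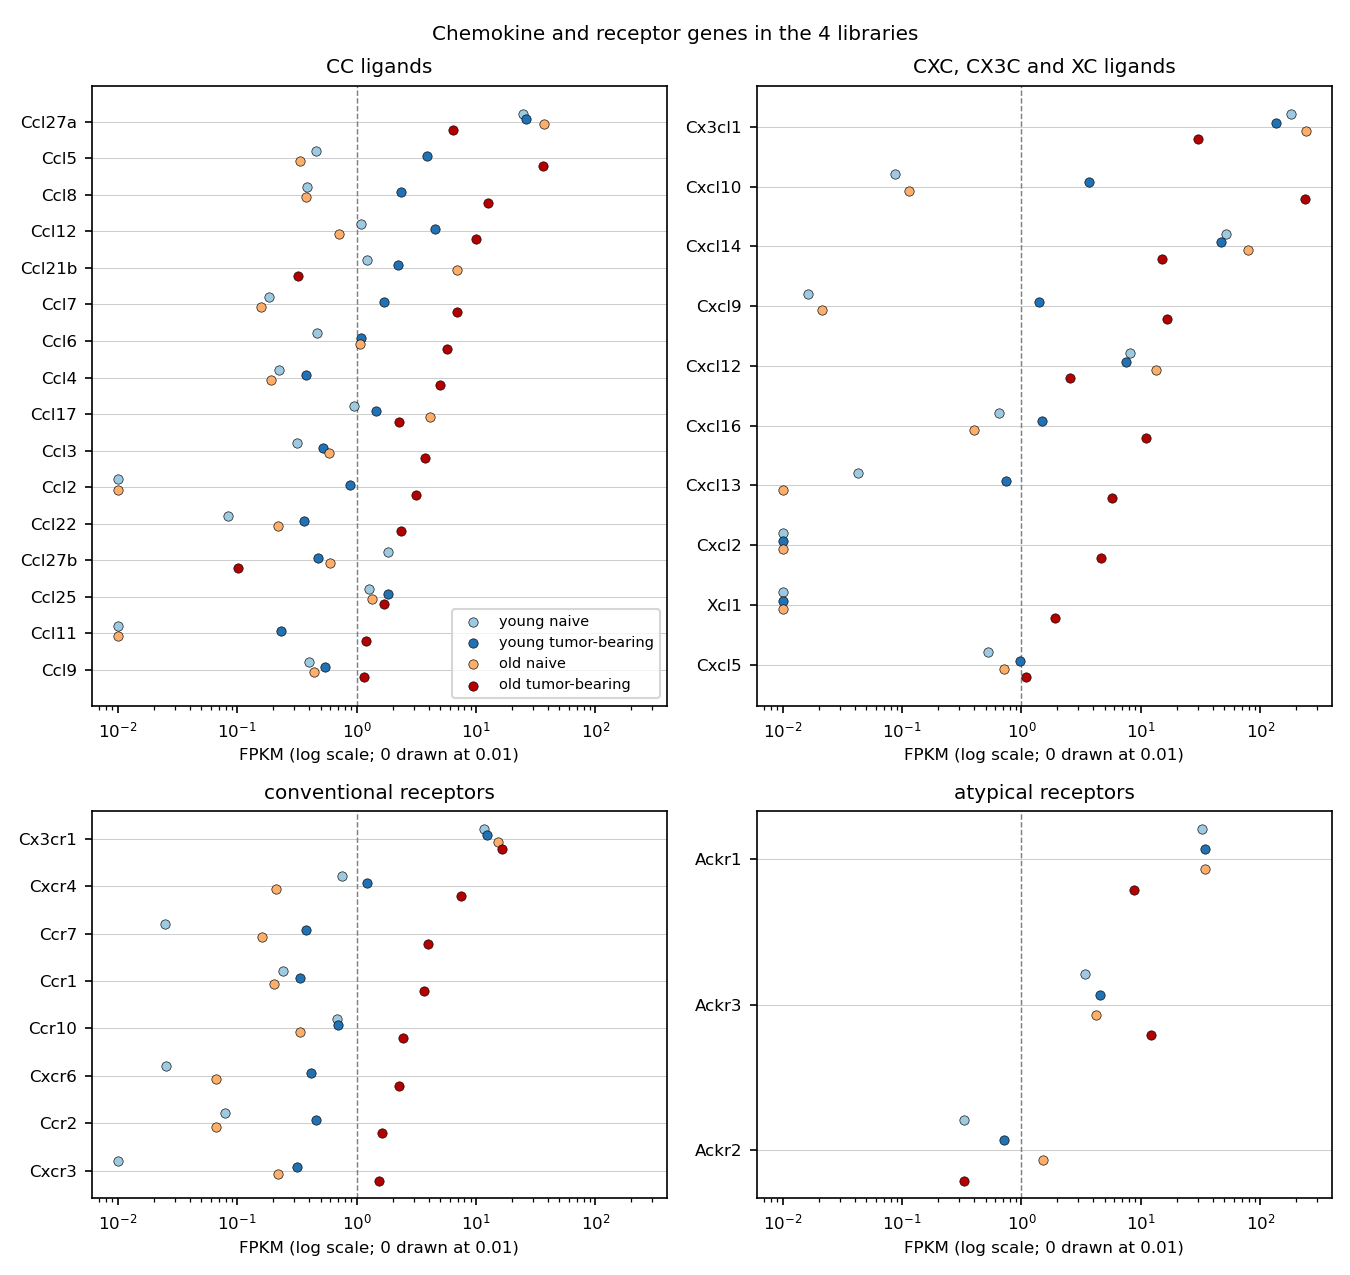
FPKM (log axis, 0 drawn at 0.01) of 37 of the 38 chemokine and receptor genes that reached 1 FPKM in any library, 1 point per library, in 4 panels by role, with a dashed line at 1 FPKM. Most inflammatory ligands and receptors are highest in the old tumor-bearing library (red), while Cx3cl1, Cxcl14, Ccl27a, Cxcl12 and Ackr1 are lowest there.

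A few ligands held nearly all ligand transcripts in naive tissue. Cx3cl1, Cxcl14, Ccl27a and Cxcl12, grouped here after their values were seen, made up 95.8% of the summed ligand FPKM in young naive and 95.02% in old naive tissue. Their share was 87.0% in young tumor-bearing and 12.7% in old tumor-bearing tissue. The total over the 37 ligands was 276 FPKM in young naive, 248 in young tumor-bearing, 390.4 in old naive and 426 in old tumor-bearing tissue. On the deposited scale the old tumor-bearing total was thus near the old naive one, with other genes in it. Cxcl9 and Cxcl10 together held 0.0345% of it in old naive and 59.4% in old tumor-bearing tissue, against 0.0373% and 2.05% in young naive and young tumor-bearing tissue.

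**Figure D2:**
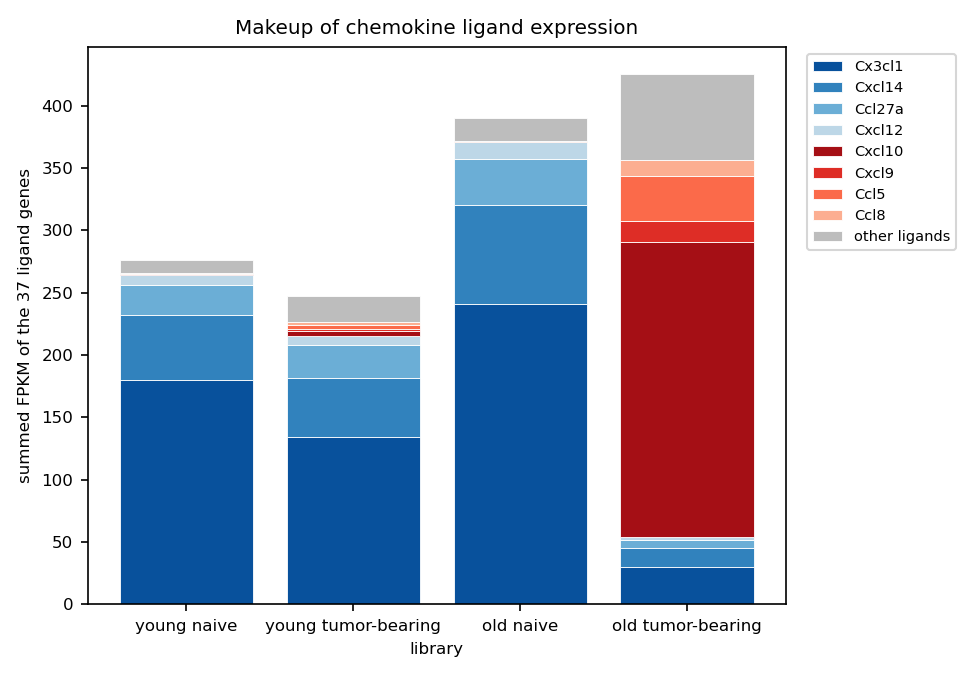
Summed FPKM of the 37 ligand genes in each library, stacked by gene, with bars from 0 and no error bars because each group is 1 library. Cx3cl1 fills most of the young naive, young tumor-bearing and old naive bars, and Cxcl10 (237 FPKM) most of the old tumor-bearing bar.

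Between the young libraries, 8 chemokine ligands stood at least 2-fold higher with the tumor and 1 stood lower. Only 4 of 22 receptors reached the floor, and none of these was 2-fold apart. The 8 were Cxcl9, Cxcl10, Cxcl16, Ccl5, Ccl6, Ccl7, Ccl8 and Ccl12, and the lower one was Ccl27b. A gene was counted when it had 1 FPKM or more in at least 1 of the 2 libraries and its ratio of FPKM + 0.1 was at least 2-fold, which 20 of the 59 could meet. Over all genes at that floor the same shares were 5.05% and 1.85%, and over protein-coding genes 2.32% and 0.350%. Medians of the log2 ratio were 0.59 for the 20 genes and -0.01 for all genes. Because a gene near 0 in naive tissue enters only through a high value with the tumor, the floor itself sets part of such counts and medians. Among receptors below the floor, Ccr7 was 15.3-fold (2.36 to 646) and Cxcr6 16.4-fold higher with the tumor (2.54 to 686). Ccr2 was 5.76-fold higher (3.01 to 12.1) and Cxcr3 at least 3.75-fold. Ccr3, Ccr6 and Cxcr5 were lower, with at most 2 reads in either library.

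Between the old libraries, 26 of 37 measured genes stood at least 2-fold higher with the tumor and 7 lower. The higher ones were 11 CC ligands, 6 ligands of the other classes, 8 conventional receptors and the atypical receptor Ackr3. The lower ones were Cx3cl1, Cxcl12, Cxcl14, Ccl27a, Ccl21b, Ackr1 and Ackr2. Over all genes 20.6% were higher and 31.4% lower, and over protein-coding genes 19.3% and 29.7%, so a large part of all transcripts also differed between these 2 libraries. With other scalings the shares over all genes were 27.3% to 32.3% higher and 19.4% to 23.7% lower, while the counts of chemokine and receptor genes stayed within 1 of those given. Medians were 2.95 for the 37 genes and -0.31 for all genes. Choroid plexus markers also differed between these libraries, with 4 of 5 higher in old tumor-bearing tissue and sums of 7.52 and 455 FPKM, and their part in the counts was not tested.

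**Figure D3:**
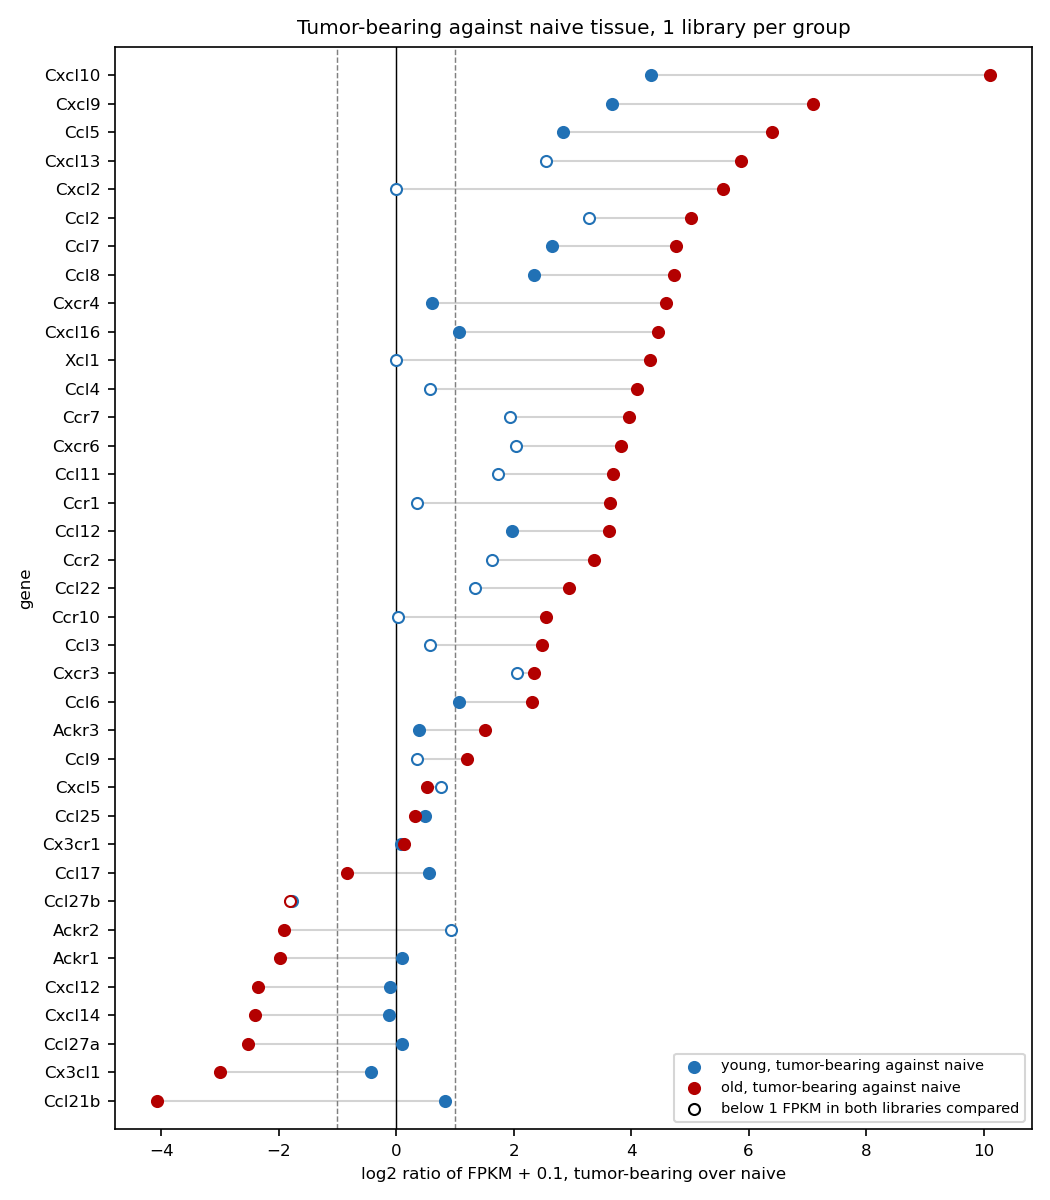
Log2 ratio of FPKM + 0.1, tumor-bearing over naive, for 37 genes that reached 1 FPKM in either comparison, in young (blue) and old (red) tissue, with dashed lines at 2-fold. Open points were below 1 FPKM in both libraries compared. Cxcl10 stands at 4.34 in young and 10.11 in old tissue, and Cx3cl1 at -0.42 and -2.99.

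Among measured members, Cxcl10 and Cxcl9, ligands of the T cell and NK cell receptor Cxcr3, had the highest log2 ratios in both tumor comparisons. Cxcl10 (ENSMUSG00000034855, mm10 chromosome 5, 92346638 to 92348889), which interferons induce, was at 0.0869 FPKM in young naive, 3.69 in young tumor-bearing, 0.114 in old naive and 237 in old tumor-bearing tissue. Both naive values rest on 4 reads each, and the tumor-bearing ones on 166 and 12394. It was 42.4-fold higher in young (16.3 to 158) and 2085-fold higher in old tumor-bearing tissue (814 to 7653). On the deposited scale, Cxcl10 in the old tumor-bearing library was nearly as abundant as Cx3cl1 in the old naive library (241 FPKM). Cxcl9 (ENSMUSG00000029417, chromosome 5, 92321347 to 92328079), the interferon gamma-induced neighbor of Cxcl10, had 1, 84, 1 and 1155 reads in the same order, or 0.0162, 1.39, 0.0212 and 16.5 FPKM. The ratio was 85.9 in young (14.998 to 3432) and 777 in old tissue (139 to 30722), wide because of the single naive reads. Cxcl11, the third ligand of Cxcr3, is annotated as a polymorphic pseudogene and so falls outside the 59. It had 2, 10, 0 and 441 reads, at least 98.9-fold higher in old tumor-bearing tissue. Cxcr3 itself had 0, 11, 6 and 62 reads and was 6.95-fold higher in old tumor-bearing tissue (3.02 to 19.7). Receptor and ligands were thus all highest in the old tumor-bearing library, the receptor at 1.54 FPKM. Cxcl10 shares 133 exon bases with Art3 on the opposite strand, itself at 1.03, 0.941, 0.894 and 12.4 FPKM. Whether counting used strand is not stated in the sources used here, so reads of that stretch cannot be told apart. It covers 5.91% of the Cxcl10 exons.

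Promoters of 45 of the 59 genes were found by symbol in the RefSeq table (GRCm38.p6, the assembly of mm10). The 250 bases before the start are shown for the 4 members with a promoter there and the largest smaller-of-2 difference in the tumor comparisons, and for 2 ligands that were lower in old tumor-bearing tissue. Capitals mark matches, on either strand, to an IRF element (GAAA, any 2 bases, GAAA), a STAT element (TTCNNNGAA), the NF-kB consensus or a TATA box (TATAAA).
Cxcl10, chr5:92348890-92349139, minus strand: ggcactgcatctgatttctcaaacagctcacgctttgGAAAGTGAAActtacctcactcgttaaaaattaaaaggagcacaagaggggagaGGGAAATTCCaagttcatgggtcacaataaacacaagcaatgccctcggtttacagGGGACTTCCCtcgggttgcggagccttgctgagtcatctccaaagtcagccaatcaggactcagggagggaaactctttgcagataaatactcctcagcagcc
Cxcl9, chr5:92328080-92328329, minus strand: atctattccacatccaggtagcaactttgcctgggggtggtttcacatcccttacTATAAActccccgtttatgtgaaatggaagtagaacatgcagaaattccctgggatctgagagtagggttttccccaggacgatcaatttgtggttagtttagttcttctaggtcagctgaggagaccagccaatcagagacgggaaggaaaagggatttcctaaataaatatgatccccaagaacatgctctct
Ccl8, chr11:82114935-82115184, plus strand: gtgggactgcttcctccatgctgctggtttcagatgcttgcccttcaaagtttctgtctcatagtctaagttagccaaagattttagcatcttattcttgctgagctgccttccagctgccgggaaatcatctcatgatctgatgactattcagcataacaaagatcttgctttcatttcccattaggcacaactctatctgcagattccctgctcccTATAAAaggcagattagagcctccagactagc
Ccl12, chr11:82101595-82101844, plus strand: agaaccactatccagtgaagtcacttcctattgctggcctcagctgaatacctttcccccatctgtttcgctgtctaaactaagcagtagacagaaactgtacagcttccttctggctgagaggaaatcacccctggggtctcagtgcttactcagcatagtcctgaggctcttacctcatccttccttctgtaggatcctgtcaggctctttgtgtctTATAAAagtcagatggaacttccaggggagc
Cxcl12, chr6:117168285-117168534, plus strand: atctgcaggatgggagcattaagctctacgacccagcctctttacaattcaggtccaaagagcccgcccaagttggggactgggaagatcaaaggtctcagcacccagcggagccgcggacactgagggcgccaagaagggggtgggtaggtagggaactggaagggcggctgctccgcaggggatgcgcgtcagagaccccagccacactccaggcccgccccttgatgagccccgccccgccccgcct
Cxcl14, chr13:56296552-56296801, minus strand: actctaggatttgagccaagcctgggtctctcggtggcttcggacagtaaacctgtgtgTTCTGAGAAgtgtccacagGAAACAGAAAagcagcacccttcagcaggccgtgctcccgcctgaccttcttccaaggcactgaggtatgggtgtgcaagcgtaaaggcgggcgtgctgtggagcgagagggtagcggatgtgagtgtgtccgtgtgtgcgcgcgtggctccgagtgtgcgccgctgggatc

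The Cxcl10 window held 1 IRF element and 2 matches to the NF-kB consensus, none of them overlapping. Those of Ccl8 and Ccl12 held a TATA box that begins at -32 and -31 from the gene start, and that of Cxcl9 one that begins at -195. Cxcl12 had no match, and Cxcl14, which was lower in old tumor-bearing tissue, had both an IRF and a STAT element. Among all 32851 promoter windows of this length, 2.98% held the IRF element, 7.02% the STAT element, 3.9% the NF-kB consensus and 12.4% the TATA box. Of the 45 genes with a promoter, 3 held the IRF element, 3 the STAT element, 9 the NF-kB consensus and 14 the TATA box. Of the 17 such genes that were at least 2-fold higher in old tumor-bearing tissue, 7 held the TATA box, 3 the NF-kB consensus, 1 the IRF element and 0 the STAT element. Of the 7 lower ones, 1 held each of the 4. These matches describe letters in a window and are not shown to be sites.

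Of the CC ligands, Ccl5 and several monocyte attractants were higher in both tumor-bearing libraries. Ccl5 (ENSMUSG00000035042, chromosome 11, 83525778 to 83530518), a T cell and macrophage attractant, was at 0.459, 3.91, 0.333 and 36.6 FPKM. That was 8.52-fold higher in young (4.26 to 19.4) and 109.8-fold higher in old tumor-bearing tissue (46.9 to 339). Both tumor-bearing libraries lay above both naive ones. Ccl2, the main ligand of Ccr2 and a recruiter of monocytes, had 0, 20, 0 and 83 reads, at least 6.82-fold higher in young tumor-bearing tissue, where it stayed below 1 FPKM, and at least 18.6-fold higher in old. Ccl7, another Ccr2 ligand, had 3, 27, 2 and 130 reads, 9.20-fold higher in young (2.83 to 47.4) and 43.7-fold in old tissue (11.9 to 365). Ccl12 was at 1.09, 4.56, 0.714 and 9.93 FPKM, 4.17-fold (2.19 to 8.62) and 13.9-fold higher (6.21 to 38.6). All 3 Ccr2 ligands were therefore lowest in the naive libraries and highest in the old tumor-bearing one. Ccl8, which also attracts monocytes, was at 0.383, 2.35, 0.375 and 12.5 FPKM, 6.13-fold (2.11 to 24.3) and 33.4-fold higher (11.2 to 164). Ccl11, the eosinophil attractant eotaxin, had 0, 5, 0 and 30 reads, at least 6.73-fold higher in old tumor-bearing tissue.

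Ccl3 and Ccl4, the macrophage inflammatory proteins, were near the floor of detection in 3 libraries. Ccl3 had 5, 8, 7 and 66 reads and Ccl4 had 3, 5, 2 and 76, so the young libraries did not differ beyond counting error. In old tumor-bearing tissue they were 6.34-fold (2.91 to 16.4) and 25.6-fold higher (6.84 to 215). The myeloid ligands Ccl6 and Ccl9 also stood highest there. Ccl6 was at 0.463, 1.09, 1.07 and 5.68 FPKM, 2.35-fold higher in young (1.30 to 4.42) and 5.32-fold in old tumor-bearing tissue (3.63 to 8.05), with the young tumor-bearing and old naive values almost equal. Ccl9 was 2.60-fold higher in old tumor-bearing tissue (1.59 to 4.42). Its young values, 0.402 and 0.542 FPKM, lay below the floor.

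The Ccr4 ligands differed from each other. Ccl22, a dendritic cell product that attracts regulatory T cells, had 4, 17, 8 and 128 reads and was 10.8-fold higher in old tumor-bearing tissue (5.30 to 25.5). Ccl17 had 10, 15, 33 and 27 reads and was highest in old naive tissue, 1.82-fold lower in the old tumor-bearing library (1.06 to 3.14). Over the scalings its log2 ratio was -0.83 to -0.28. Ccl25, the thymic and gut ligand of Ccr9, was at 1.27, 1.83, 1.35 and 1.71 FPKM. It was 1.43-fold higher in young (1.19 to 1.73) and 1.27-fold in old tumor-bearing tissue (1.04 to 1.55). Its old log2 ratio was 0.32 to 0.87 over the scalings. Its exons share 204 bases with Elavl1 on the opposite strand.

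Ccl27a and Ccl21b were lower in old tumor-bearing tissue. Ccl27a, a ligand of Ccr10, was at 24.7, 26.3, 37.4 and 6.46 FPKM, 5.79-fold lower in old tumor-bearing than in old naive tissue (5.15 to 6.52) and equal within counting error in the young libraries (0.985 to 1.16). Ccl21b, a ligand of Ccr7, had 10, 18, 44 and 3 reads and was 21.8-fold lower (6.99 to 109.7). Both values are uncertain, because 45.0% of the 50-base words of Ccl27a transcripts and 100% of those of Ccl21b also occur in other genes. The same holds for Ccl27b, 98.1% of whose words are shared. It had 16, 4, 4 and 1 reads, 3.91-fold lower in young tumor-bearing tissue (1.26 to 16.1).

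Among the other CXC ligands and Xcl1, Cxcl16, Cxcl13, Cxcl2 and Xcl1 were at least 2-fold higher in old tumor-bearing tissue. Cxcl16, a membrane-bound ligand of Cxcr6, was at 0.648, 1.47, 0.402 and 10.96 FPKM, 2.27-fold higher in young (1.55 to 3.39) and 27.3-fold in old tumor-bearing tissue (17.3 to 45.5). It shares 552 exon bases, 18.3% of its exons, with Zmynd15 on the opposite strand, which was at 0.203 FPKM in old naive and 2.23 FPKM in old tumor-bearing tissue. Cxcl13, the B cell attractant that binds Cxcr5, had 1, 17, 0 and 153 reads, at least 34.3-fold higher in old tumor-bearing tissue. Cxcl2, a neutrophil attractant, had 0 reads in 3 libraries and 223 in the old tumor-bearing one, at least 50.02-fold higher than in old naive tissue. The other ligands of Cxcr2, the neutrophil receptor, did not share this level. Cxcl1 had 0, 2, 2 and 9 reads, Cxcl3 had 0, 0, 0 and 3, and Cxcl5 was at 0.525, 0.966, 0.720 and 1.08 FPKM. Cxcl2 shares 5.84% of its 50-base words with other genes, Cxcl3 among them. Xcl1, the lymphotactin of T and NK cells, had 0, 0, 0 and 23 reads, at least 5.16-fold higher.

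Cx3cl1, fractalkine (ENSMUSG00000031778, chromosome 8, 94772009 to 94782427), was the most abundant member in 3 libraries. It was at 180.3 FPKM in young naive, 134 in young tumor-bearing, 241 in old naive and 30.2 in old tumor-bearing tissue. The young tumor-bearing library was 1.34-fold below young naive (1.31 to 1.38), and the old tumor-bearing library 7.98-fold below old naive (7.66 to 8.31). The old tumor-bearing value was lowest of all under each scaling tried, with a log2 ratio of -2.42 to -2.99. Cxcl14, an epithelial and neuronal chemokine, was at 51.5, 47.2, 79.5 and 14.9 FPKM, 5.34-fold lower in old tumor-bearing tissue (4.88 to 5.84). Cxcl12, the Cxcr4 ligand of stromal and neural cells, was at 8.08, 7.55, 13.5 and 2.55 FPKM, 5.29-fold lower (4.78 to 5.86). In young tissue Cxcl14 and Cxcl12 were within 1.09-fold and 1.07-fold. The median log2 ratio of the 5 neuronal markers was -2.90 in old and -0.14 in young tissue, and that of 5 astrocyte markers was -1.35 in old tissue and near 0 in young. Their part in the lower ligand levels was not tested.

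The receptors of infiltrating leukocytes were low in naive tissue and higher in the old tumor-bearing library. Cxcr4, the Cxcl12 receptor of leukocytes and progenitor cells, was at 0.757, 1.22, 0.212 and 7.44 FPKM, 35.1-fold higher in old tumor-bearing tissue (15.9 to 96.4). The young libraries did not differ beyond counting error (0.978 to 2.68). Ccr7, which guides dendritic and T cells to lymph nodes, had 1, 15, 5 and 183 reads, 24.6-fold higher in old tissue (10.4 to 76.7). Ccr2, the receptor of inflammatory monocytes, had 11, 62, 7 and 255 reads, 5.76-fold higher in young (3.01 to 12.1), where it stayed below 1 FPKM, and 24.5-fold in old tissue (11.7 to 61.6). Both tumor-bearing libraries thus lay above both naive ones for Ccr2. Ccr1, a receptor of myeloid cells, had 14, 19, 9 and 242 reads, 18.1-fold higher in old tissue (9.37 to 40.0). Cxcr6, a receptor of resident T cells, had 1, 16, 2 and 101 reads, 34.0-fold higher in old tissue (9.17 to 284). Ccr10 had 24, 24, 9 and 98 reads, 7.33-fold higher (3.71 to 16.5), with the young libraries equal.

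Cx3cr1 (ENSMUSG00000052336, chromosome 9, 119901616 to 120069879) was the exception. The microglial receptor for Cx3cl1 was at 11.6, 12.4, 15.1 and 16.6 FPKM. On the deposited scale it stayed within 1.34-fold in each of the 4 comparisons. For old over young tumor-bearing tissue its log2 ratio was 0.42 to 0.80 over the scalings. Its old tumor-bearing to old naive ratio was 1.10 (1.015 to 1.18), or a log2 ratio of 0.13 to 0.70 over the scalings. Beside it, the 8 microglial markers summed to 95.4, 117, 119 and 131 FPKM, none of them 2-fold apart in young and 1 of 8 in old tissue, lower in the tumor-bearing library.

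Of the atypical receptors, Ackr1, which binds many inflammatory ligands on venules and red cells, was at 32.3, 34.6, 34.6 and 8.69 FPKM, 3.98-fold lower in old tumor-bearing than in old naive tissue (3.47 to 4.57). Its exons share 361 bases, 25.7% of their length, on the same strand with Cadm3, an adhesion molecule gene at 83.6, 90.6, 90.0 and 12.8 FPKM, so reads of the 2 genes could be split and the Ackr1 level is uncertain. Ackr3, which scavenges Cxcl12, was at 3.42, 4.53, 4.22 and 12.2 FPKM, 2.90-fold higher in old tumor-bearing tissue (2.50 to 3.37). Ackr2, a scavenger of inflammatory CC ligands, had 21, 45, 74 and 24 reads. It was 2.19-fold higher in young tumor-bearing tissue (1.28 to 3.87), below 1 FPKM in both libraries, and 4.58-fold lower in old (2.86 to 7.60). The old naive library was thus the high one.

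The 21 genes below 1 FPKM in every library were Ccl1, Ccl19, Ccl20, Ccl21a, Ccl24, Ccl26, Ccl28, Cxcl1, Cxcl3, Cxcl15, Cxcl17, Ccr3, Ccr4, Ccr6, Ccr8, Ccr9, Cxcr1, Cxcr2, Cxcr5, Xcr1 and Ackr4. Several of these had their most reads in old tumor-bearing tissue. Xcr1, the receptor of cross-presenting dendritic cells, had 0, 4, 0 and 32 reads, Cxcr5, of follicular lymphocytes, 2, 0, 3 and 33, and Cxcr2 0, 0, 1 and 16. Ccr8, of regulatory T cells, had 0, 1, 0 and 20 reads and its ligand Ccl1 had 0, 3, 5 and 30. Ackr4, which scavenges Ccr7 ligands, stood highest in young tumor-bearing tissue instead, with 11, 37, 5 and 8 reads. It shares 479 exon bases with Acad11 on the opposite strand. Ccl28, a mucosal ligand of Ccr10, had 61, 96, 52 and 28 reads, lowest in the old tumor-bearing library.

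Pairs of a ligand and its receptor could be read side by side. For Cxcl12 the ligand was 5.29-fold lower in old tumor-bearing tissue, while Cxcr4 was 35.1-fold and Ackr3 2.90-fold higher. For Cx3cl1 the ligand was 7.98-fold lower and Cx3cr1 within 1.10-fold. Cxcl16 and Cxcr6 were both higher, 27.3-fold and 34.0-fold. Other pairs had positive log2 ratios on both sides: Cxcl13 and Cxcr5 5.86 and 1.74, Xcl1 and Xcr1 4.32 and 2.03. Ccl1 and Ccr8 had 1.46 and 3.06, Ccl20 and Ccr6 1.33 and 0.74, and Ccl25 and Ccr9 0.32 and 0.82. In these pairs every receptor, and also Ccl1 and Ccl20, stayed below 1 FPKM in all libraries. Outside the list of pairs, Ccl27a was 5.79-fold lower and its receptor Ccr10 7.33-fold higher. The Ccl27a level is uncertain, because 45.0% of its 50-base words are shared. In young tissue neither partner of the Cxcl12 or Cx3cl1 pair was 2-fold apart.

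Position on the chromosome did not always go with direction. Genes whose starts lay within 500 kb of the previous gene were grouped. The 6 genes from Ccl2 to Ccl1 on chromosome 11 (82035571 to 82305690) held 5 measured genes, all 5 at least 2-fold higher with the tumor in old tissue. Another 5 from Ccl5 to Ccl4 (83525778 to 83664683) were all higher too, beside 20.6% of all genes. Of the 5 from Cxcl5 to Cxcl2 on chromosome 5 (90759360 to 90905938), 2 were measured, Cxcl2 higher and Cxcl5 at a log2 ratio of 0.53, which was 1.06 when scaled by fragments in genes. In other groups, Cxcl9 and Cxcl10 were both higher, as were Cxcr6, Ccr1 and Ccr2 on chromosome 9, and Ccl27a and Ccl21b both lower. On chromosome 8, however, 3 ligand genes within 66.4 kb (94745590 to 94812036) differed in direction. Ccl22 was 10.8-fold higher and Cx3cl1, which lies between the other 2, 7.98-fold lower. Ccl17 was 1.82-fold lower on the deposited scale, short of 2-fold.

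**Figure D4:**
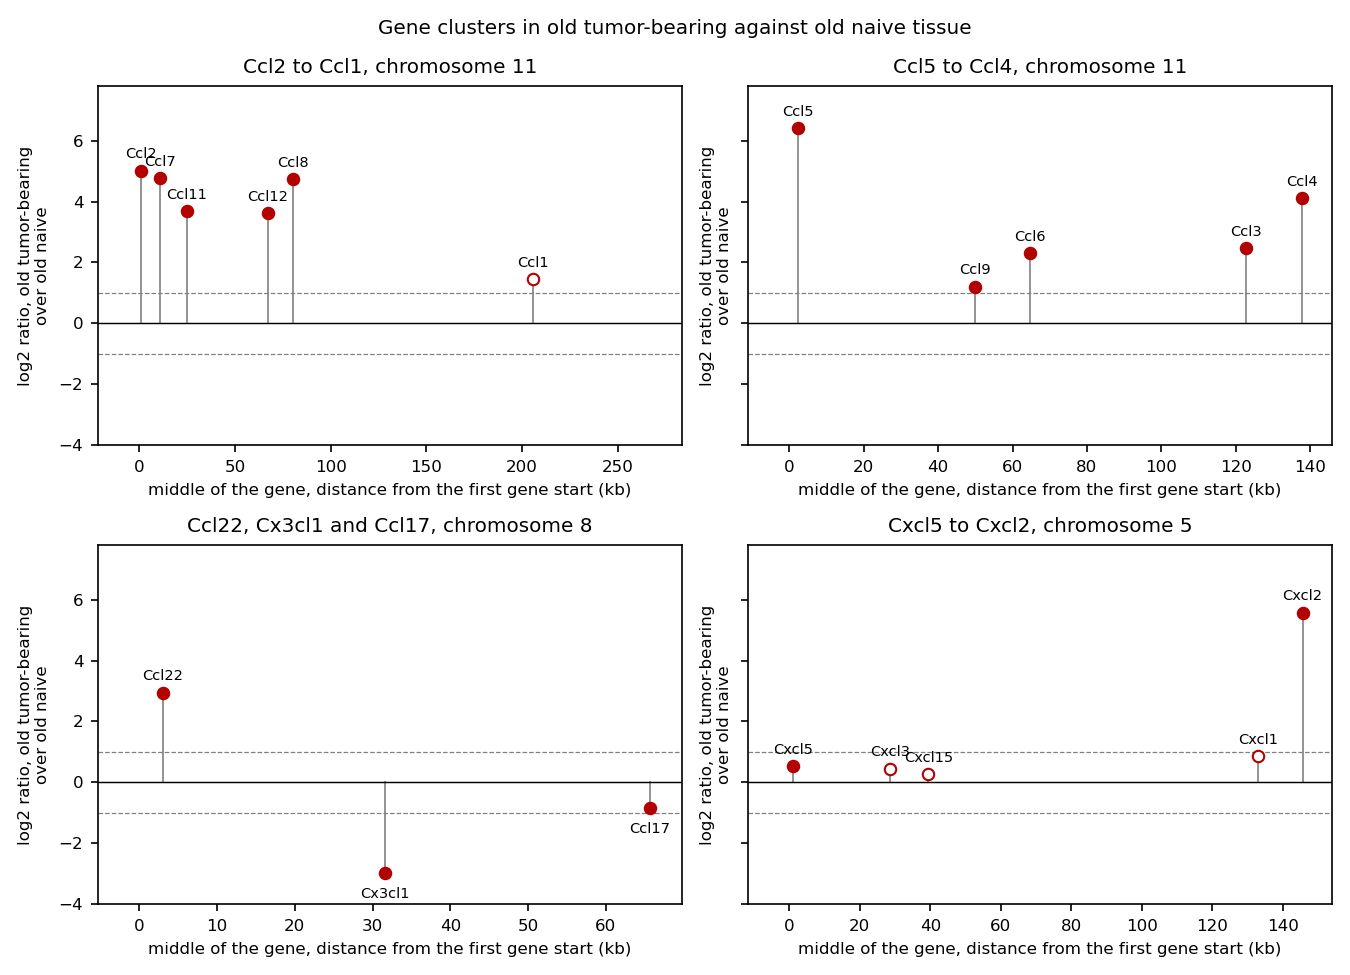
Log2 ratio of old tumor-bearing over old naive tissue for the genes of 4 chromosomal clusters, placed at the middle of each gene as distance in kb from the first gene start, with dashed lines at 2-fold and open points for genes below 1 FPKM in both libraries. All measured genes of both chromosome 11 clusters lie above 1, while Cx3cl1 lies at -2.99 between Ccl22 at 2.95 and Ccl17 at -0.83.

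Old naive against young naive tissue set the 2 age groups side by side without a tumor, with 1 library each. Of 14 genes measured, 4 stood at least 2-fold higher and 1 lower, against 6.71% and 4.93% of all genes and 3.23% and 3.07% of protein-coding genes, with medians of 0.51 and 0.06. Ccl21b was 5.75-fold higher in old naive tissue (2.85 to 12.8), Ackr2 4.60-fold (2.80 to 7.87), Ccl17 4.31-fold (2.08 to 9.81) and Ccl6 2.31-fold (1.23 to 4.46). These are low levels, with 10 to 21 reads in the young library. Ccl6 fell short of 2-fold when scaled by fragments in genes or to equal FPKM totals. The abundant ligands were also somewhat higher, Cx3cl1 1.33-fold (1.30 to 1.37), Cxcl14 1.54-fold (1.45 to 1.64) and Cxcl12 1.67-fold (1.55 to 1.79). Markers of other tissue parts differed between these libraries too. All 5 choroid plexus markers were at least 2-fold lower in old naive tissue (summed 412 against 7.52 FPKM), as were 3 of 4 ependymal markers, while the neuronal sum was 859 against 1132 FPKM. Their part in the ligand levels was not tested.

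Old tumor-bearing against young tumor-bearing tissue shares its libraries with the comparisons above. Of 36 genes measured, 25 stood at least 2-fold higher and 6 lower, against 19.0% and 29.8% of all genes and 17.5% and 27.9% of protein-coding genes, with medians of 1.97 and -0.28. Cxcl10 was 64.2-fold higher (55.1 to 75.3), Ccl4 13.1-fold (5.36 to 41.4), Cxcl9 11.8-fold (9.47 to 14.9), Ccr1 10.95-fold (6.86 to 18.5), Ccr7 10.5-fold (6.20 to 19.1) and Ccl5 9.36-fold (7.38 to 12.0). Cx3cl1 was 4.45-fold lower (4.27 to 4.64), Ackr1 3.98-fold (3.48 to 4.55) and Cxcl12 2.97-fold (2.67 to 3.30). To set the 2 tumor comparisons side by side, the old log2 ratio minus the young was taken for the 19 genes measured in both. On the deposited scale the difference was 1 or more in 10 genes, -1 or less in 7 and between these in Ccl25 and Cx3cr1. It was largest for Cxcl10 at 5.77, followed by Cxcr4 at 3.98, and lowest for Ccl21b at -4.90 and Ccl27a at -2.61. Levels of Ccl21b and Ccl27a are uncertain because of words shared with other genes. Scaled by fragments in genes, Ccl17 had log2 ratios of 0.62 in young and -0.28 in old tissue, and left the group at -1 or less. With 1 library per group the difference could not be tested. It was not counted over all genes, so these counts do not set the chemokine and receptor genes apart.

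Genes that act downstream of chemokine receptors were found on both sides, as were all genes. Of 30 such genes, 23 were measured in young tissue, of which 1 stood 2-fold higher and 0 lower, beside 5.05% and 1.85% of all genes. In old tissue 29 were measured, with 10 higher and 9 lower (median 0.22), beside 20.6% and 31.4% of all genes (median -0.31). That count became 13 to 15 higher and 8 or 9 lower, of 30 measured, with other scalings, beside 27.3% to 32.3% and 19.4% to 23.7% of all genes. The higher ones included kinases and GTPases of leukocytes. Fgr was 25.2-fold higher (10.6 to 78.4), and Rac2, which drives leukocyte migration, 11.3-fold (8.52 to 15.4). Prkcd, a kinase also abundant in some neurons, was at 16.5, 18.5, 3.15 and 23.5 FPKM, lowest in old naive tissue. Among the lower ones were the receptor-silencing arrestin Arrb1, from 52.1 to 10.2 FPKM, and the kinase Grk2, from 79.2 to 24.7 FPKM.

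Of transcription factors and regulators that control chemokine genes, some were higher in young and most in old tumor-bearing tissue. All 17 listed were measured, of which 5 stood higher and 0 lower in young (median 0.54) and 14 higher and 0 lower in old tumor-bearing tissue (median 2.37). Over all genes 5.05% were higher in young and 20.6% in old tissue. Irf7, of the type I interferon response, was at 0.699, 3.46, 1.25 and 45.0 FPKM, 4.94-fold higher in young (3.67 to 6.75) and 35.9-fold in old tissue (28.5 to 45.8). Irf1 was at 1.11, 4.68, 2.36 and 70.9 FPKM, 30.004-fold higher in old tissue (25.5 to 35.6). Nfkb2 was 2.87-fold (2.29 to 3.64) and 25.0-fold higher (20.4 to 31.2). Cebpb, a regulator of myeloid genes, was 1.91-fold (1.52 to 2.41) and 13.4-fold higher (11.1 to 16.3).

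Most measured markers of T cells and of monocytes and macrophages were higher in old tumor-bearing than in old naive tissue. Over all genes 20.6% were higher and 31.4% lower in that comparison. Of dendritic cell and neutrophil markers only 3 each were measured there, too few to set them apart from all genes. The 8 T cell markers summed to 1.32, 4.10, 0.990 and 23.4 FPKM, all 8 at least 2-fold higher in old tumor-bearing tissue, and Cd3d was at 0 reads in both naive libraries. The 8 monocyte and macrophage markers summed to 8.39, 32.7, 14.3 and 272 FPKM, with 5 of 6 measured higher in old tissue. Lyz2 alone held 244 FPKM of the last sum. B cell markers summed to 10.9, 17.1, 23.7 and 33.2 FPKM, and NK cell markers to 1.88, 1.80, 0.0495 and 5.10 FPKM. Dendritic cell markers summed to 7.72, 8.91, 5.26 and 10.9 FPKM, with 1 higher and 1 lower of 3 measured in old tissue (median log2 ratio -0.81). Neutrophil markers summed to 3.31, 2.62, 10.4 and 3.84 FPKM, with 0 higher and 2 lower of 3 measured (median -1.58) and Ly6g at 0 reads in all but the young naive library, where it had 2. Proliferation markers, which tumor cells share, summed to 0.732, 5.36, 0.458 and 117 FPKM. The part of any of these cells in the chemokine levels was not tested.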

How the data were processed

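The authors deposited 1 FPKM column for each library, per the file headers. The submitters' processing notes name HISAT2 as aligner and mm10 as genome. No source used here gives the counting program, annotation, filters or pooling. The labels' protocols allow for a directional or a non-directional library and leave the choice unstated. GENCODE M21, of the same assembly, gave the symbol, type, exons and position of 54409 of 54532 genes.

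FPKM multiplied by exon length moved in steps of 1 read, from which depth divisors and reads per gene were recovered. This gave whole reads in all 4 libraries for 31883 (97.2%) of 32801 named genes above 0 (tolerance 0.03 reads or 2e-05 of the value). Recovery and intervals were checked on simulated data. A gene counted as measured if either library compared had 1 FPKM or more. Adding 0.1 FPKM before the log2 ratio makes differences of low genes look smaller. Folds are ratios of FPKM with exact conditional binomial 95% intervals of reads. These leave out variation between mice, and PCR copies of a molecule count as separate reads. A fold against 0 reads, given as at least, was taken with 3 reads in place of the 0. It leaves out counting error in the other library, so it is not the lower limit of an interval.

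Exon overlaps and 50-base words shared with other genes were counted on GENCODE M21. Members at 1 FPKM or more in any library are named with their values, except that some single-gene values are left out and not reported here, and of each pathway list without members up to 4 genes with the largest absolute log2 ratio in old tissue. Arrb1, Grk2 and Lyz2 were named after their values were seen. The members and lists were chosen with earlier results of these data known. Alternatives were another pseudocount, other floors, 3 other scalings, genes at 0 set to 3 reads, and a count limited by the interval. Analyses used Python 3.11.15, numpy 2.4.6, pandas 2.3.3 and scipy 1.17.1.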

Additional observations from a re-analysis of the deposited data

Results flagged for a closer look

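For 2 genes the tumor comparison went in opposite directions in young and old tissue, each beyond counting error. The difference between the ages was not tested, since each group is 1 library. Ackr2, the scavenger of inflammatory CC ligands, was 2.19-fold higher in young tumor-bearing (1.28 to 3.87) and 4.58-fold lower in old tumor-bearing tissue (2.86 to 7.60), an old minus young log2 ratio of -2.84. Its old naive library, with 74 reads, was the high one of the 4. Ccl28, a mucosal ligand of Ccr10, was 1.61-fold higher in young (1.16 to 2.26) and 2.76-fold lower in old tumor-bearing tissue (1.71 to 4.54), a difference of -1.78, at levels below 1 FPKM in all libraries.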

How the results depend on the processing

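The counts of genes at least 2-fold apart depended mostly on the floor. Without a floor, 17 were higher and 3 lower for the young tumor comparison, 7 higher and 5 lower for age in naive tissue, and 10 lower for age in tumor-bearing tissue. With a floor of 5 FPKM, 0 were higher and 0 lower for the young tumor comparison, 11 higher for the old tumor comparison, 1 higher and 0 lower for age in naive tissue, and 11 higher for age in tumor-bearing tissue. All 8 ligands that were higher in young tumor-bearing tissue thus lay below 5 FPKM. A pseudocount of 1 left 0 lower for the young tumor comparison, and 2 higher and 0 lower for age in naive tissue. Limiting counts to intervals beyond 1 left 0 lower for age in naive tissue. Shares over all genes are not given for these floors, the pseudocount of 1 or the interval limit. The counts therefore show only how the numbers depend on the setting. None of the 8 counts moved by more than 1.5 times with the 3 other scalings or with genes at 0 set to 3 reads, and no gene at least 2-fold apart turned its direction under the scalings, the pseudocount or that setting. No paired analysis was possible because each group holds 1 library, and for the same reason none could be left out.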

Other observations

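Of 8 chemokine-related genes whose names fall outside the Ccl to Ackr pattern, 5 were measured in old tissue, with 3 at least 2-fold higher in the tumor-bearing library and 0 lower, beside 20.6% and 31.4% of all genes. With the 3 other scalings 4 of the 5 were higher, Mif among them. Ccrl2, which presents chemerin without signaling, was at 0.621, 0.674, 0.738 and 4.98 FPKM, from young naive to old tumor-bearing tissue in the order used above, 6.75-fold higher in old tissue (4.63 to 10.2). Cmklr1, the chemerin receptor of macrophages, was 4.23-fold higher (3.18 to 5.71). Pf4, a CXC ligand of platelets and border macrophages, was 2.17-fold higher (1.14 to 4.41). Mif, a cytokine that also binds Cxcr2 and Cxcr4, was abundant in all 4 libraries, at 202, 173, 185 and 314 FPKM, and was 1.69-fold higher in old tumor-bearing tissue on the deposited scale (1.61 to 1.78).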
